A study of Mchenga conophoros with 13 samples.

Results

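High-egr1 spots were pieces of cichlid telencephalon whose RNA held the largest share of egr1, a zinc finger transcription factor gene of the immediate early class. They were compared with low-egr1 spots of the same males. In each of 13 Visium capture areas, spots with at least 500 unique molecular identifiers (UMIs) were kept and ranked by egr1 UMIs over total UMIs. The top 10% of the spots with at least 1 egr1 UMI formed the high class, and the lowest 50% of all kept spots formed the low class, with ties taken in file order. This gave 473 high and 3307 low spots among 6624 kept spots, of 6755 spots in all. A spot is a small field of tissue that can hold several cells, so a change in a spot sum can come from more cells of a type or from more RNA per cell, and these cannot be told apart.

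The sections came from adult Mchenga conophoros males, a Lake Malawi cichlid in which males shape sand into castle-like bowers. By the labels, 2 males were in the building state before collection and 2 were controls, numbered 1 and 2 in each group, and the study describes them as size-matched pairs. No strain, genotype or agent is given for either group. Building male 1 had 1 capture area, and building male 2, control male 1 and control male 2 had 4 each, so male and plane of section cannot be told apart for building male 1. Counts were summed per male and class (8 sums), and the male was the replicate.

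Median depth of kept spots was 4763 and 8406 UMIs in building males 1 and 2, against 3093.5 and 9210.5 UMIs in control males 1 and 2, and control 1 C was the shallowest area with a median of 1498. High spots were deeper than low spots in each of the 4 males, with medians of 7628 UMIs in high spots and 6363 UMIs in low spots over all males. Barcodes mark positions that every capture area carries, and 1631 of 2717 distinct barcodes occurred in more than 1 area.

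Immediate early genes are transcribed within minutes of strong neuronal excitation, through calcium, MAP kinase and CREB signalling, and need no new protein for it. Many encode transcription factors (the Fos, Jun, Egr, Nr4a and Npas4 families). Others encode regulators that feed back on the same signals, such as dual-specificity phosphatases that switch MAP kinases off. In fish and mammals their transcripts are widely used to find neurons that were recently active.

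The egr1 values that chose the spots are given as a description. In low, middle (neither class) and high spots, egr1 stood at 70.4, 511 and 1118 counts per 1e6 UMIs (CPM) in building male 1 and at 79.8, 419 and 1034 CPM in building male 2. The same 3 classes held 54.7, 495 and 1471 CPM in control male 1 and 99.5, 447 and 1185 CPM in control male 2. At least 1 egr1 UMI was found in 70.8% of kept spots. Across areas the lowest rate inside the high class ran from 603 to 1737 CPM, with the next spot outside it at 594 to 1732 CPM. The highest rate inside the low class ran from 0 to 272 CPM and the next above it from 0 to 273 CPM. In control 1 C the low class held only spots without an egr1 UMI, and its edge fell among ties.

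Whether egr1 itself differed between conditions was not fixed by the ranking, which was made inside each area. Over all kept spots, egr1 averaged 376 and 299 CPM in the building males, against 343 and 346 CPM in the control males. The groups overlapped, and the log2 fold change was −0.04 ± 0.15 (SE, edgeR quasi-likelihood test, adjusted p = 0.9996, n = 2 males each).

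The main question was which other genes followed egr1 across the tissue. Transcripts of other immediate early genes and of POMC, pdyn, mafb, LOC101477647, th and SP8 were higher in high-egr1 spots. Transcripts of the SST gene LOC101485677, crh, crhbp, aromatase and cnr1 were lower. Of 11665 genes tested without egr1, 592 (5.08%) were higher and 475 (4.07%) lower at an adjusted p under 0.05. Of the 1067 genes called (9.15%), 978 had the same direction in all 4 males. At least 2-fold changes were fitted for 231 of the higher and 177 of the lower genes, and the median log2 fold change of all genes was −0.002. The values of high and low sums did not overlap for 1210 of the genes tested (10.4%). The count fell to 258 higher and 174 lower genes without building male 2 and to 344 and 223 without control male 2, the 2 deepest males. Without the pairing by male, 321 genes were higher and 190 lower.

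The study's IEG-like genes were the members described first. The study chose this list from single nuclei of other males, by co-detection with fos, egr1 and npas4, so its direction here is not independent evidence. All 24 members other than egr1 were tested. Of these, 16 were higher, 0 were lower and 8 did not pass, beside 5.08% higher and 4.07% lower of all genes. The median log2 fold change was 0.69, beside −0.002 for all genes. The summed level of the 24 genes was 3143, 3825 and 5014 CPM in low, middle and high spots of building male 1 and 3180, 4102 and 4921 CPM in building male 2. In control male 1 it was 2987, 3880 and 5112 CPM, and in control male 2 it was 2707, 3659 and 5267 CPM, over the same 3 classes. The middle class thus lay between the other classes in each of the 4 males.

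**Figure D1:**
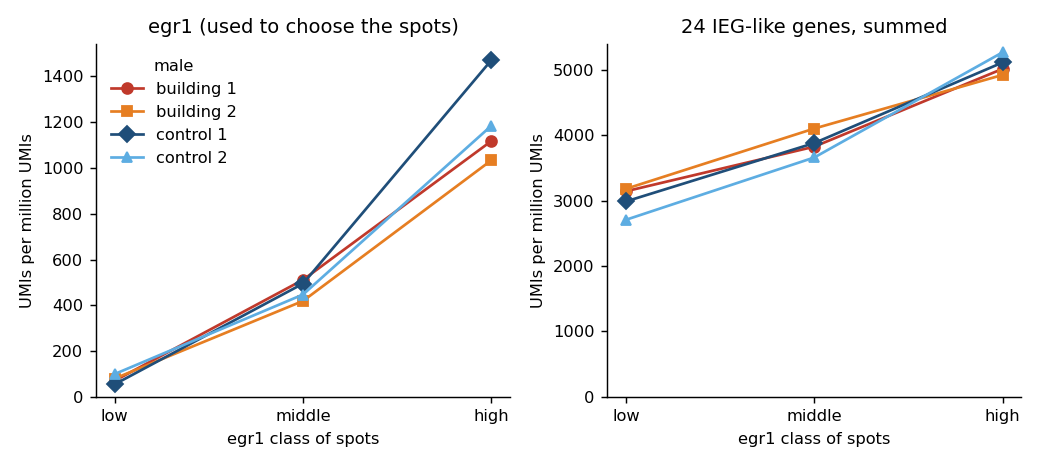
Level in CPM (y axis) in low, middle and high egr1 spots (x axis) of each of the 4 males, for egr1 on the left and for the sum of the 24 IEG-like genes on the right. The summed IEG-like genes lay between 2707 and 3180 CPM in low spots and between 4921 and 5267 CPM in high spots, with the middle class between them in every male.

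Depth was not equal between classes, so spots were also thinned to 2000 UMIs. A thinned high spot held UMIs of 6.33 of the 24 genes on average (427 spots) and a thinned low spot 4.21 (2852 spots), with 46 and 455 shallower spots left out. Unthinned spots held 12.6 genes in the high class and 8.96 in the low class. The thinned mean was 6.49 against 4.51 genes in building male 1, 6.21 against 4.38 in building male 2, 5.91 against 4.17 in control male 1 and 6.66 against 3.81 in control male 2, for high against low spots. When classes were chosen again on thinned counts, 11 members were higher, and 154 of all genes. Of the 255 high spots of that setting, 143 were in the main high class. When classes were chosen within 3 depth bins of each area, 15 members were higher, and 483 of all genes.

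Among the transcription factors of the list, EGR3 (LOC101482048), a close relative of egr1, had 152, 145, 114 and 98.1 CPM in high spots of building males 1 and 2 and control males 1 and 2, against 33.9, 40.1, 49.1 and 35.2 CPM in their low spots. No high value overlapped a low one, and the log2 fold change was 1.67 ± 0.14 (SE, adjusted p = 1.2e-05). FOS (LOC101487312), whose protein forms the AP-1 dimer with Jun proteins, had 132, 157, 198 and 109 CPM in high spots, against 54.2, 48.1, 68.5 and 43.8 CPM in low spots, in the same order of males. Its log2 fold change was 1.47 ± 0.12 (adjusted p = 9.7e-06), again without overlap. The other FOS gene, LOC101487601, had 24.8, 47.0, 124 and 57.8 CPM in high spots and 19.8, 26.8, 18.7 and 22.7 CPM in low spots. It was higher in each male and in each of 13 areas, although building male 1 differed little, and the log2 fold change was 1.29 ± 0.26 (adjusted p = 0.0081). The neuron-specific factor npas4 had 194, 144, 151 and 151 CPM in high spots, against 110, 65.4, 95.7 and 72.4 CPM in low spots. Its groups did not overlap (log2 fold change 0.94 ± 0.12, adjusted p = 0.0002).

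EGR4 (LOC101475150) was higher in 13 of 13 areas, with a log2 fold change of 0.99 ± 0.12, while its paralog LOC101475431 did not pass (0.49 ± 0.20, adjusted p = 0.17). The orphan nuclear receptor NR4A1 (LOC101463795) was higher by 1.32 ± 0.35 from few UMIs (43 in high and 105 in low spots). EGR2 (LOC101466115) was higher by 0.73 ± 0.16, fosl2 by 0.57 ± 0.12 and jund by 0.56 ± 0.12 on the log2 scale. JUN (LOC101482945) and CREM (LOC101487706) did not pass, at 0.29 ± 0.10 and 0.10 ± 0.13.

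Members with other roles moved with them. DNAJB5 (LOC101476226), a chaperone of the heat shock 40 family, had 599, 508, 695 and 612 CPM in high spots of building males 1 and 2 and control males 1 and 2, against 236, 136, 218 and 186 CPM in low spots. The groups were far apart and the log2 fold change was 1.66 ± 0.10 (SE, adjusted p = 1.9e-06). ITM2C (LOC101486362), a membrane protein gene, had 623, 462, 528 and 746 CPM in high spots, against 256, 218, 174 and 162 CPM in low spots (1.53 ± 0.16, adjusted p = 5.5e-05). The phosphatase gene dusp5, whose product acts on ERK in the nucleus, was higher by 1.46 ± 0.14, the adhesion receptor gene ADGRB1 by 1.09 ± 0.11 and the orphan receptor gene GPR12 by 1.66 ± 0.25. GPR12 was higher in 3 of 4 males, and building male 1 had 22.4 CPM in high and 23.3 CPM in low spots. The stress gene gadd45b (0.65 ± 0.13) and the kinase gene plk2 (0.48 ± 0.11) also passed. Not passing were irs2, SGK1 and rrad and both RTN4RL2 genes, with log2 fold changes from −0.45 to 0.49.

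Of 41 further activity-regulated genes, 22 were matched to the feature table and 16 were tested. Of these, 5 were higher: dusp1 (1.66 ± 0.21) and dusp6 (0.59 ± 0.13), which encode MAP kinase phosphatases, ier2 (1.59 ± 0.19), nr4a3 (0.77 ± 0.19) and nab2 (0.94 ± 0.12). The NAB2 protein binds Egr factors and represses their targets, and in mammals nab2 is itself induced by EGR1. Transcripts of nab2 had 134, 110, 83.4 and 104 CPM in high spots of building males 1 and 2 and control males 1 and 2, against 60.3, 54.4, 49.8 and 56.7 CPM in low spots, with no overlap. The antiproliferative gene btg1 (−0.71 ± 0.18) and the secreted peptide precursor gene VGF (LOC101480487, −0.63 ± 0.17) were lower. The median over the 16 genes was 0.13, and of all genes 5.08% were higher and 4.07% lower.

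Of 17 tested genes of the signalling path to immediate early genes (kinases, CREB, calcium channels, NMDA receptor subunits), 2 were higher and 1 lower, beside 5.08% and 4.07% of all genes, with a median of −0.08. The NMDA receptor subunit genes went in opposite directions. Transcripts of grin2a had 89.4, 41.6, 46.4 and 67.4 CPM in high spots of building males 1 and 2 and control males 1 and 2, against 25.8, 15.9, 13.4 and 11.9 CPM in low spots (log2 fold change 1.85 ± 0.20, adjusted p = 8.7e-05). Those of grin2b were lower in all 4 males (−0.52 ± 0.11, adjusted p = 0.012). The L-type calcium channel gene cacna1c was higher by 0.39 ± 0.10. In rodents GRIN2B predominates early and GRIN2A later in postnatal life.

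Genes for neuropeptides and transmitter enzymes changed in both directions: of 21 tested, 8 were higher and 5 lower, beside 5.08% and 4.07% of all genes. Their median log2 fold change was 0.002. The opioid and melanocortin precursor gene POMC (LOC101475601) had 484, 412, 223 and 480 CPM in high spots of building males 1 and 2 and control males 1 and 2, against 64.8, 40.9, 61.4 and 66.6 CPM in low spots. The groups did not overlap, and the log2 fold change was 2.80 ± 0.18 (adjusted p = 1.9e-06). POMC UMIs were found in 35.9% of high and 18.1% of low spots. The prodynorphin gene pdyn had 32.3, 216, 74.2 and 208 CPM in high spots, against 27.4, 39.0, 43.4 and 23.2 CPM in low spots. It was higher in each male and in 13 of 13 areas, by 2.16 ± 0.33, though the values of building male 1 differed little. The urocortin gene ucn (1.08 ± 0.15) and CCK (LOC101483958, 0.48 ± 0.08), the cholecystokinin gene, were higher as well.

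The somatostatin genes of the feature table diverged. SST LOC101486892 had 621, 206, 275 and 121 CPM in high spots of building males 1 and 2 and control males 1 and 2, against 17.2, 41.3, 53.3 and 24.3 CPM in low spots (log2 fold change 2.84 ± 0.33, adjusted p = 0.00014). SST LOC101485677, the more abundant gene, had 44.7, 438, 337 and 143 CPM in high spots, against 146, 4966, 1214 and 1438 CPM in low spots (−2.88 ± 0.25, adjusted p = 1.5e-05). The direction held in each male, although high and low values overlapped between males. Over all males 50.3% of high and 51.0% of low spots held a UMI of LOC101485677. Across males the share ran from 19.2% to 72.3% in high and from 14.3% to 79.7% in low spots. The gene had 1216 of 4134595 UMIs in high spots and 76817 of 24845511 in low spots. Building male 2 alone held 62324 of those 76817.

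The corticotropin-releasing hormone gene crh was lower, unlike ucn, whose peptide acts on the same receptors. It had 7.45, 31.3, 61.8 and 21.96 CPM in high spots of building males 1 and 2 and control males 1 and 2, against 48.1, 329, 128 and 152 CPM in low spots (−2.77 ± 0.28, adjusted p = 4.6e-05). Each male moved the same way. The genes of its binding protein fell with it, crhbp by −2.16 ± 0.23 and LOC101487439 by −0.76 ± 0.13. The neuropeptide Y gene npy was lower in 3 of 4 males (−1.19 ± 0.32, adjusted p = 0.033), with 772 CPM in high and 705 CPM in low spots of building male 1. SSTR2 (LOC101485655), a somatostatin receptor gene, was lower by −1.20 ± 0.14.

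**Figure D2:**
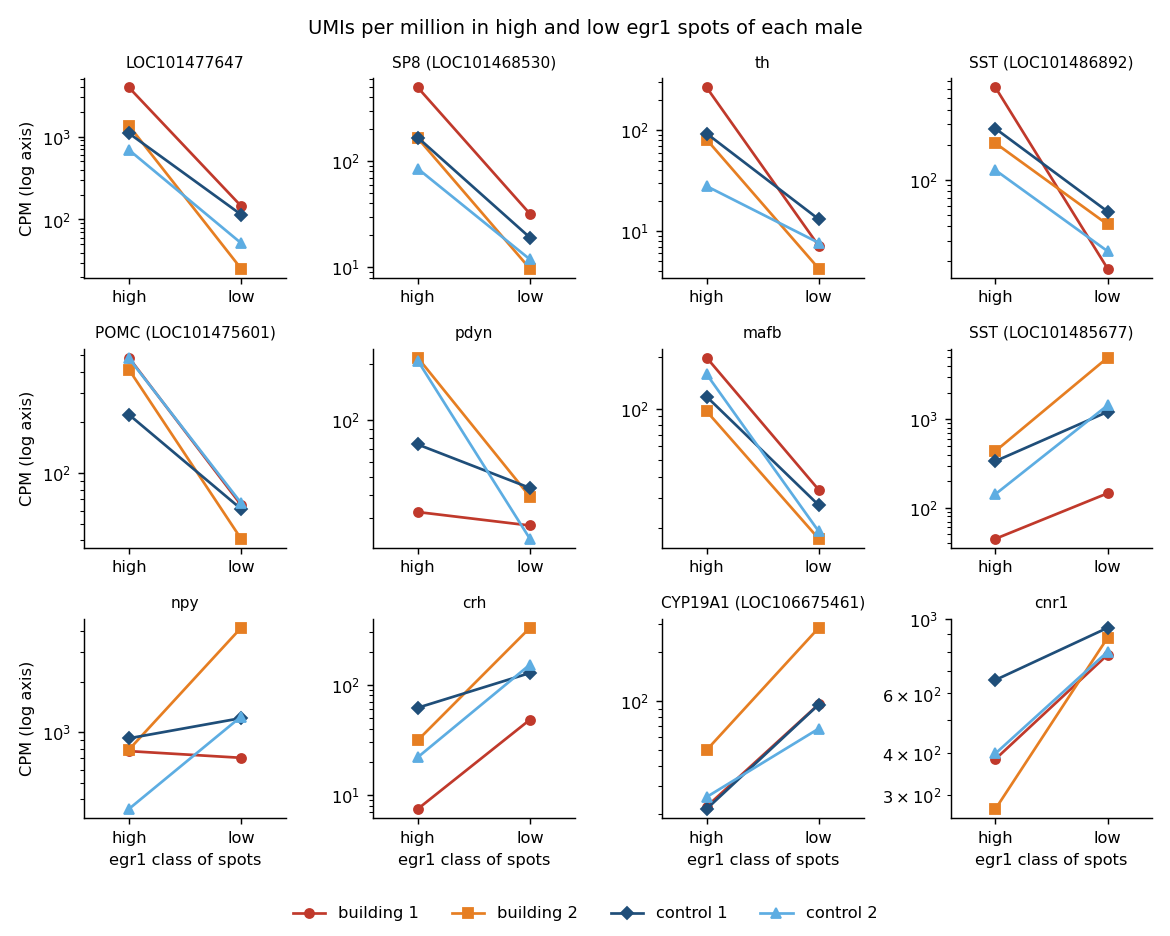
Level in CPM (log axis) in high and low egr1 spots of each of the 4 males for 12 genes, with a line joining the spots of 1 male. POMC had 223 to 484 CPM in high and 40.9 to 66.6 CPM in low spots, and SST LOC101485677 44.7 to 438 CPM in high and 146 to 4966 CPM in low spots.

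The genes with the largest rise were not tested as a group. Ranked by log2 fold change among called genes with the same direction in 4 males and at least 50 UMIs, the first 15 had log2 fold changes of at least 3.08. Among them were unc13b, SP8 (LOC101468530), th, egr2, dlx3 and 9 genes with no paired symbol. LOC101477647 was the most abundant, with 3899, 1354, 1094 and 690 CPM in high spots of building males 1 and 2 and control males 1 and 2, against 145, 25.6, 115 and 51.9 CPM in low spots. The groups did not overlap (4.36 ± 0.31, adjusted p = 3.6e-06). The gene th, for tyrosine hydroxylase, the rate-limiting enzyme of dopamine synthesis, had 266, 80.8, 92.7 and 27.8 CPM in high spots, against 7.09, 4.22, 13.1 and 7.61 CPM in low spots (3.54 ± 0.37, adjusted p = 6.4e-05). SP8, a zinc finger factor of olfactory bulb interneurons in mice, had 494, 165, 167 and 84.9 CPM in high spots and 31.9, 9.72, 19.1 and 11.9 CPM in low spots (3.55 ± 0.19).

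Several genes known from olfactory bulb interneurons in mammals were also higher, picked from different lists and not a fixed list of their own. They were dlx5 (1.73 ± 0.22), sp9 (0.73 ± 0.12), trh (2.05 ± 0.33) and tac1 (2.36 ± 0.25). Chosen after their values were seen were meis2 (1.27 ± 0.14), pax6 (2.23 ± 0.39) and sall3 (2.69 ± 0.22). Of the 35 tested genes of the transcription factor list that holds meis2 and pax6, 7 were higher and 11 lower. Of the subpallial list that holds dlx5 and sp9, 8 genes were tested and 4 were higher, while six3 (−1.21 ± 0.27) and lhx6 (−1.46) were lower. Over all genes 5.08% were higher and 4.07% lower. Among the study's markers of its subpallial and olfactory bulb cluster, npy was lower, as given above. The transporter genes slc6a3 and slc18a2 and the peptide gene CARTPT (LOC101470177), listed with th, were not among the genes called. The th and SP8 genes were uneven over sections. A UMI of th or SP8 occurred in 86 of 473 high spots (18.2%) and 280 of 3307 low spots (8.47%). In building 2 A the share was 61.5% of high and 11.7% of low spots. In control 2 D it was 36.7% and 21.9%, in control 1 A 30.8% and 15.8%, and in building 1 C 28.8% and 11.8%. In 6 of 13 areas the share was larger among high spots, and in building 2 D, control 2 A and control 2 B no high spot had such a UMI.

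**Figure D3:**
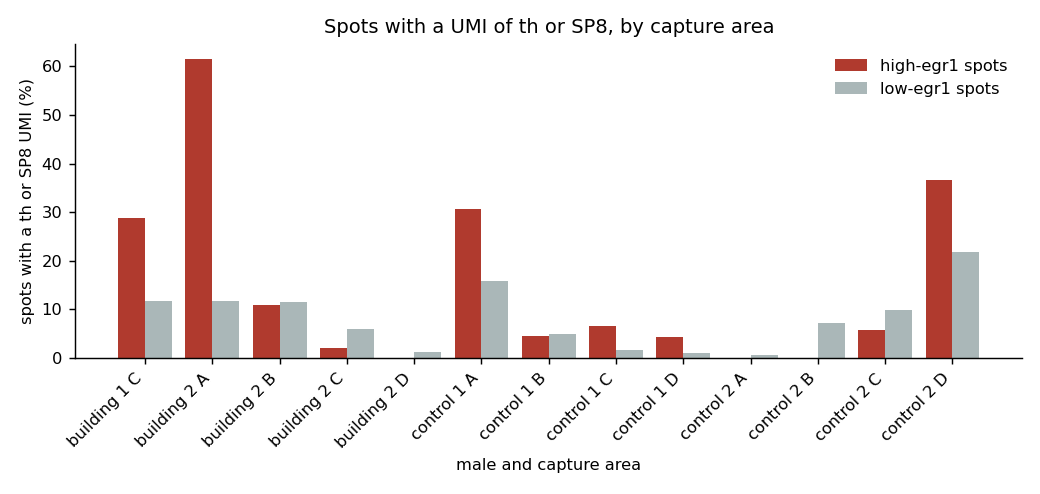
Share of spots (y axis, percent) with at least 1 UMI of th or SP8 among high-egr1 and low-egr1 spots of each of the 13 capture areas (x axis, named by male and area). The largest share, 61.5%, was that of high spots in building 2 A, and 3 areas had none among their high spots.

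With every spot that held a th or SP8 UMI left out and classes chosen again, a setting added after the data were seen, 422 high and 2970 low spots remained. The counts were then 648 higher (5.82%) and 474 lower (4.25%) genes of 11140, together 10.1%. LOC101477647 had a log2 fold change of 0.17 (adjusted p = 0.83) and SST LOC101486892 of −0.30 (adjusted p = 0.55), while tac1 was −1.67, dlx5 −0.69, sp9 −0.80, dlx2 −1.37 and meis2 −0.74, all past the threshold in the other direction. Spots were left out by th and SP8 themselves, so a smaller or opposite value of genes found in the same spots is in part built into this setting. Among the IEG-like genes 17 of 23 were higher without those spots, with a median of 0.85. POMC (3.21), mafb (3.03) and pdyn (2.47) stayed higher, and SST LOC101485677 (−3.07), crh (−3.26) and aromatase (−3.17) stayed lower.

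The region of a spot was read from the genes of pallium (7 genes, among them slc17a6, slc17a7 and tbr1) and subpallium (9 genes, among them gad2, the dlx2 and dlx5 genes and lhx6), by whichever list had more UMIs. Pallial spots made up 61.9% of high and 54.9% of low spots. The share was larger among high spots in each male, but areas differed. In building 2 A it was 32.3% of high and 49.0% of low spots. It was also smaller among high spots in control 1 A, control 1 D, control 2 A and control 2 D. The dorsal part of the telencephalon, the pallium, holds mostly glutamatergic neurons, and the subpallium mostly GABAergic ones. High and low classes were therefore also chosen inside each region, giving 284 high and 1866 low pallial spots and 175 high and 1214 low subpallial spots. Changes of the 16 genes that assigned the spots are no finding within regions.

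In pallial spots 658 genes (6.44%) were higher and 500 (4.89%) lower of 10223 tested, and in subpallial spots 252 (2.74%) were higher and 193 (2.1%) lower of 9198, which together is 4.84%. Among 8997 genes tested in both, 49 were higher in both regions, which is 8.52% of the pallial and 23.9% of the subpallial calls. Likewise 50 were lower in both (10.9% and 27.3%), and 36 were called in opposite directions. The difference between regions, fitted in 1 model over 16 sums with male and region as a block, was a test added after the data were seen. The model took the pallial and subpallial contrasts of 1 male as independent. Its p-values thus do not measure the spread of the regional difference between the 4 males. The difference passed for 515 of 10608 genes (4.85%), 238 (2.24%) with a larger and 277 (2.61%) with a smaller log2 fold change in pallium.

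More IEG-like genes were called in pallial spots: 19 of 23 were higher there (median 0.87), beside 6.44% of all genes. In subpallial spots 5 of 23 were higher (median 0.10), beside 2.74% of all genes. Log2 fold changes were above 0 for 22 of 23 members in pallial and 15 of 23 in subpallial spots. The subpallial fit had 175 high spots against 284 in pallium, and it called fewer genes of any kind. The 5 subpallial calls were EGR3, DNAJB5, FOS LOC101487312, EGR4 LOC101475150 and npas4, each also higher in pallium. For the difference between regions, 7 of 23 members passed with the larger fold change in pallium and 1 with the smaller, beside 2.24% and 2.61% of all genes. ITM2C had 1.98 in pallium and 0.06 in subpallium (difference 1.90, adjusted p = 0.00027), FOS LOC101487601 1.92 and −0.53 (2.44, adjusted p = 0.00099), rrad 0.92 and −0.81, dusp5 1.73 and 0.74, ADGRB1 1.36 and 0.55, irs2 0.73 and −0.44, and gadd45b 0.84 and −0.12. EGR4 LOC101475150 passed the other way, with 0.62 in pallium and 1.27 in subpallium. EGR3 (1.53 in both) and FOS LOC101487312 (1.42 and 1.43) had near equal changes, with differences of −0.02 and −0.06.

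**Figure D4:**
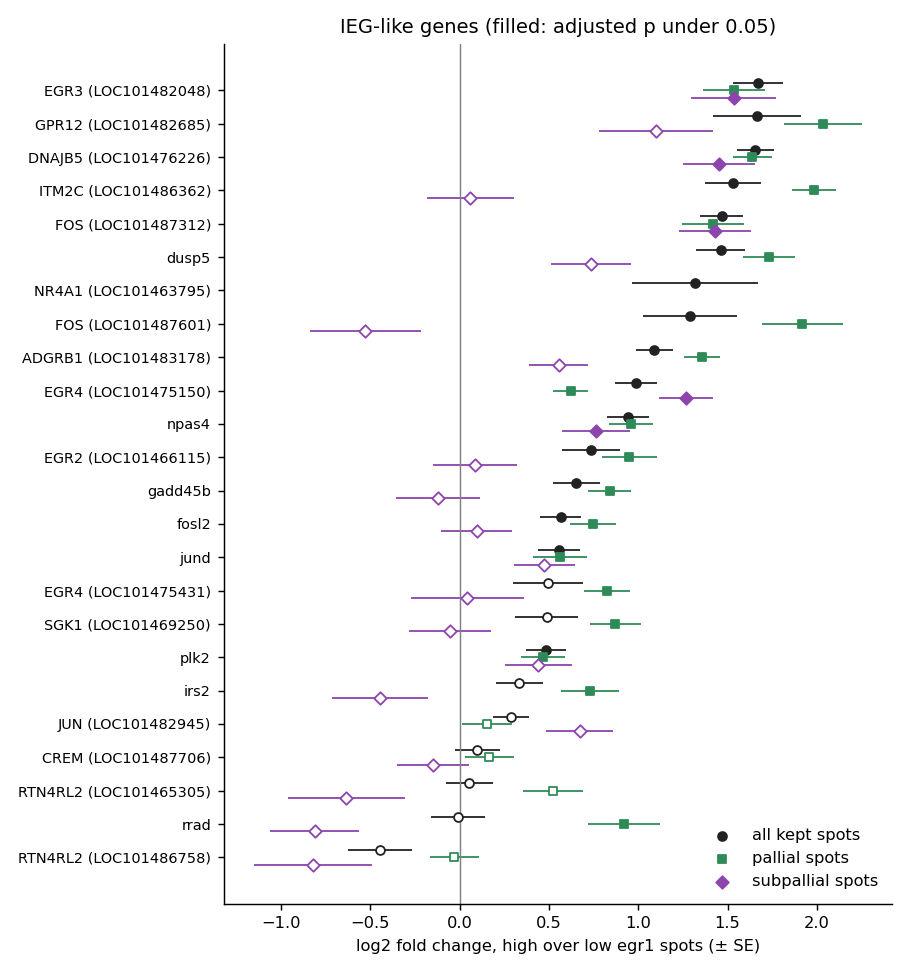
Log2 fold change of high over low egr1 spots (x axis, ± SE) for the 24 IEG-like genes (y axis) in all kept spots, pallial spots and subpallial spots, with filled symbols past an adjusted p of 0.05. Most members lay right of 0 in pallial spots (19 of 23 called higher), and 5 of 23 were called higher in subpallial spots. Over all genes 6.44% and 2.74% were higher in these regions.

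With th and SP8 spots left out of the subpallium too, 29 genes (0.397%) were higher and 57 (0.78%) lower of 7310, together 1.18%, and 4 of 23 IEG-like genes were higher with a median of 0.45. Fewer spots and genes entered this fit. The subpallial median of the list thus moved from 0.10 with these spots to 0.45 without them. Members above 0 numbered 15 of 23 with these spots and 21 of 23 without them.

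Pallial rises included POMC (3.05 in pallium and 0.33 in subpallium, difference 2.63, adjusted p = 0.0011), pdyn (2.29 and 0.17, adjusted p of the difference 0.037), ucn (1.31 and −0.11), grin2a (2.42 and 0.09) and insm1 (2.04 and 0.44), a zinc finger gene of neuroendocrine cells. The transcription factor gene mafb, named here after its values were seen, had 199, 96.5, 117 and 159 CPM in high spots of building males 1 and 2 and control males 1 and 2, against 33.4, 17.3, 27.2 and 19.1 CPM in low spots. It was higher by 2.59 ± 0.15 in all kept spots, by 2.91 in pallium and by 0.85 (not passing) in subpallium (difference 2.02, adjusted p = 0.0024). The mineralocorticoid receptor gene NR3C2 (LOC101465385) was higher by 2.25 in pallium and 0.34 in subpallium. Pallial falls included cnr1, the type 1 cannabinoid receptor gene (−1.61 in pallium and 0.13 in subpallium, adjusted p of the difference 0.003), and fezf2, a pallial projection neuron factor (−2.50 and −0.41, adjusted p 0.0079).

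Beside the IEG-like genes above and ier2 (1.88 in subpallium and 1.17 in pallium), subpallial rises included LOC101477647, which had 4.31 in subpallium and −0.98 in pallium (difference −5.30, adjusted p = 2.8e-05). The gene tac1, for substance P and neurokinin A, had 2.54 and −1.34, and SST LOC101486892 had 2.83 and −0.13. In pallium th and SP8 were too rare to be tested. Lower in both regions were SST LOC101485677 (−1.52 in pallium and −3.07 in subpallium, with the larger fall in subpallium at an adjusted p of 0.00024), crh (−1.73 and −2.74) and npy (−1.10 and −1.36). Not every male had less npy in pallium: control male 1 had 352 CPM in high and 330 CPM in low pallial spots.

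**Figure D5:**
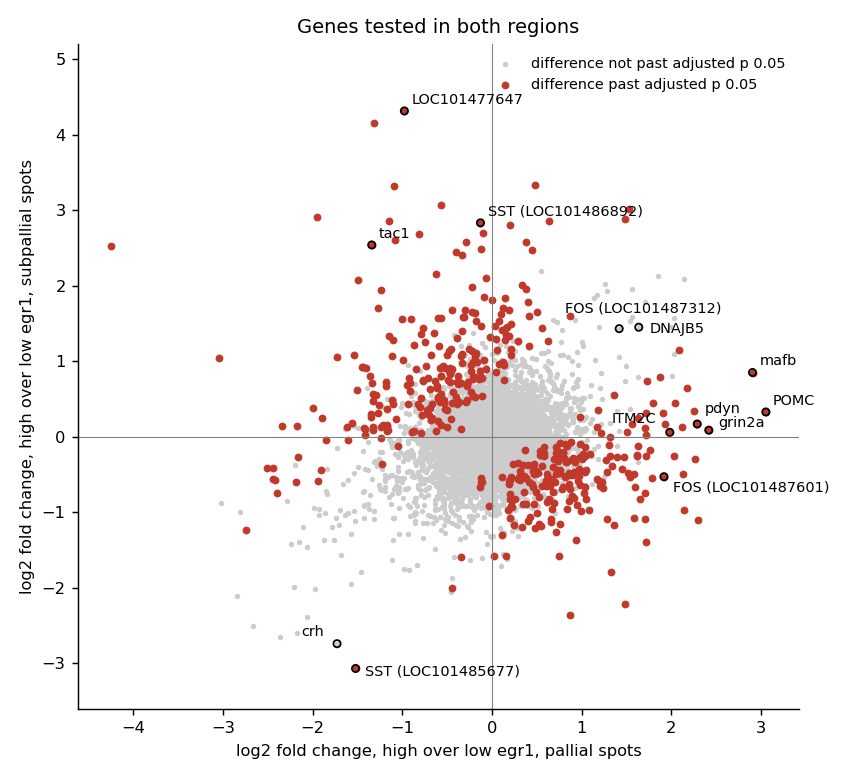
Log2 fold change of high over low egr1 spots in pallial (x axis) and subpallial spots (y axis) for the 8997 genes tested in both regions, with genes whose difference between regions passed in red. POMC, pdyn and ITM2C lay to the right near 0 on the y axis, and mafb to the right but higher on that axis. LOC101477647 and tac1 lay at the top left, and SST LOC101485677 and crh low on both axes.

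Among 35 tested transcription factors that the study used for neuroanatomy, 7 were higher and 11 lower, beside 5.08% and 4.07% of all genes. Their median was −0.40. These genes were named after their values were seen. The higher ones were bhlhe22, dlx2, dlx5, insm1, meis2, pax6 and sp9. Among the lower ones, lhx8 (−2.76 ± 0.21) and lhx6 (−1.46 ± 0.32) mark subpallial neurons of medial ganglionic eminence type in mammals. In pallial lineages neurod1 (−2.08 ± 0.38), NEUROD6 (LOC101472195, −1.49 ± 0.21) and fezf2 (−1.61 ± 0.21) were lower. Without the th and SP8 spots the counts became 2 higher and 17 lower of 34, beside 5.82% and 4.25% of all genes.

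Neuron genes as a list shifted little, with a median of 0.23 over 10 tested. MAP2 (LOC101476633, 0.43 ± 0.10) and syn2 (0.40 ± 0.11) were higher and ELAVL4 (LOC101470924, −1.18 ± 0.13) lower, beside 5.08% and 4.07% of all genes. The summed neuronal level was 9227 against 9023 CPM in building male 1, 9686 against 8290 in building male 2, 9466 against 8204 in control male 1 and 10747 against 8120 CPM in control male 2, for high against low spots. Markers of other cells were present in both classes and moved beside the results above. Among 8 tested radial glia genes, aromatase CYP19A1 (LOC106675461), which fish radial glia use to make estradiol, was the 1 that passed, beside 9.15% of all genes. It had 22.4, 49.9, 21.6 and 25.6 CPM in high spots of building males 1 and 2 and control males 1 and 2, against 95.8, 283, 95.3 and 67.7 CPM in low spots (−2.12 ± 0.19, adjusted p = 1.8e-05). A UMI of this gene occurred in 15.4% of high and 18.6% of low spots. Building male 2 alone held 3557 of its 4523 UMIs in low spots. The other radial glia genes, such as fabp7 (0.01 ± 0.10) and GFAP (LOC101468392, −0.16 ± 0.14), did not pass.

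Summed radial glia genes ranged from 1269 to 1548 CPM in high spots and from 1471 to 1535 CPM in low spots. Of 5 oligodendrocyte genes mag was lower (−0.86 ± 0.12), and the summed list went both ways. It was at 214 and 545 CPM in high spots of building males 1 and 2, against 459 and 864 CPM in their low spots, and at 519 and 727 CPM in high spots of control males 1 and 2, against 506 and 503 CPM in their low spots. Of 4 tested microglia genes apoeb (LOC101466239) was lower (−0.78 ± 0.14), with the list at 318 to 640 CPM in high and 758 to 806 CPM in low spots. Vessel and pericyte genes lay at 68.0 to 101 CPM in high and 92.4 to 133 CPM in low spots, and vegfd, with 4 UMIs in high and 167 in low spots, was lower. No gene of the oligodendrocyte precursor list passed (0 of 3), nor of the CDG module, the study's co-expressed genes of castle-building evolution (0 of 7). Of 7 tested heat shock and chaperone genes, bag3 was higher (1.00 ± 0.18). Over all genes 9.15% were called, so counts of 0 or 1 in such short lists are no result about the lists. The part of these cells in the results was not tested.

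Ribosomal protein genes were lower as a list, by little: of 67 tested, 0 were higher and 49 lower, beside 4.07% of all genes, with a median of −0.28 and a range from −0.39 to −0.16. Their summed level was 69920, 89702, 83198 and 88516 CPM in high spots of building males 1 and 2 and control males 1 and 2, against 88728, 101547, 97397 and 109499 CPM in low spots. Each male moved the same way. The count was 2 without control male 2, 11 without building male 2, 27 without control male 1, and 0 without pairing by male. Over all genes 223, 174, 468 and 190 were lower in these settings, in the same order. In pallial spots 6 of 67 were lower and in subpallial spots 60, but 0 in subpallial spots without a th or SP8 UMI. Of all genes 4.89%, 2.1% and 0.78% were lower in these fits. All 67 stayed below 0 in each of these fits, with medians of −0.16 in pallial spots, −0.45 in subpallial spots and −0.18 in subpallial spots without a th or SP8 UMI.

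The genes with the largest falls by the same ranking ran from −2.77 to −4.82. They were SST LOC101485677, crh, vegfd, the aquaglyceroporin gene aqp9 and 6 genes with no paired symbol. LOC101468328 had 4 UMIs in high spots and 684 in low spots, at 0, 1.47, 0 and 0.732 CPM in building males 1 and 2 and control males 1 and 2, against 19.8, 25.7, 24.01 and 33.9 CPM. LOC101476499 had 13 UMIs in high and 815 in low spots. Both were also lower in pallial spots alone (−5.74 and −5.25), and both were too rare in subpallial spots to be tested there.

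Last, the contrast of high against low spots was compared between conditions. Of 11665 genes, 1 passed for the difference between building and control males (0.00857%). An unadjusted p under 0.05 (edgeR) was found for 493, a smaller share than the 0.05 that chance alone gives. None of the 24 IEG-like genes passed (smallest adjusted p = 0.086), and their median log2 fold change was 0.61 in building and 0.84 in control males. With 2 males in each condition this comparison has little precision. With the replicate number as a block, 2 genes passed, and the gene called without the block did not.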

How the data were processed

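For each of 13 capture areas the files deposited by the authors hold unnormalized counts (UMIs of each feature in each spot). The submitters' processing notes name Space Ranger 1.3.1. Per the study's methods, reads were mapped to a genome of the related cichlid Maylandia zebra. Counts of 32471 features were used, and 131 spots under 500 UMIs were left out. Counts of high and low egr1 spots were summed per male. The sums, without egr1, were fitted with edgeR 4.0.16 in R 4.3.3 (TMM factors, filterByExpr, quasi-likelihood test, male as block, Benjamini-Hochberg adjustment over all genes tested). High and low sums of 1 male come from the same animal, which is the pairing. CPM are counts per 1e6 UMIs of a sum, and SE is the log2 fold change over the root of F. DESeq2 1.42.0 was an alternative. The fit was also run on simulated counts with no differences between males or regions and no choice of spots by egr1. That run does not check these parts.

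Members, lists and tests were chosen with earlier results of these data known. The receptor and transcription factor lists came from the study's tables, which also paired LOC numbers with human symbols. By rule the text names all IEG-like genes, the 15 highest and 10 lowest log2 fold changes among called genes with the same direction in 4 males and at least 50 UMIs, and members past the threshold of the other lists. Receptor genes, the neuroanatomical transcription factors, mafb, sall3 and PNOC were chosen after their values were seen. Of the genes the rule selects, 1 is not reported here. P-values measure spread between 4 males, except those of the difference between regions, which took the regional contrasts of 1 male as independent. Read positions and sequences of genes were not used here.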

Additional observations from a re-analysis of the deposited data

Results flagged for a closer look

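PNOC (LOC101473568), the prepronociceptin gene, was the 1 gene whose contrast differed between conditions in the main fit. That count depended on the setting, with 56 genes passing with no filter on low counts. PNOC had 47.2 and 27.9 CPM in high spots of building males 1 and 2, against 192 and 81.8 CPM in their low spots. In control males 1 and 2 it had 207 and 122 CPM in high spots, against 102 and 101 CPM in low spots. Both building males thus had less and both control males more in high spots. The direction was the same in subpallial spots. There building males 1 and 2 had 78.3 and 129 CPM in high and 473 and 194 CPM in low spots. Control males 1 and 2 had 742 and 652 CPM in high and 292 and 227 CPM in low subpallial spots. An SP8 UMI occurred in 28.8% and 21.8% of high spots of the building males, against 10.5% and 9.30% in the control males. Condition cannot be told apart from the tissue that the sections held. Over all kept spots, the fitted log2 fold change was −1.76 in building and 0.58 in control males. The difference was −2.34 ± 0.31 (SE, edgeR interaction term, adjusted p = 0.038). With each male left out in turn, which leaves 1 male in a condition, the difference ran from −2.78 to −2.02. With the replicate number as a block, the difference was −2.32 and did not pass (edgeR, adjusted p = 0.065). The study describes size-matched pairs, but the labels do not say that the replicate number marks them.

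Building male 1 stood apart for the summed subpallial genes, with a log2 ratio of high over low spots of 1.43, against 0.52 in building male 2, 0.55 in control male 1 and 0.60 in control male 2. Its distance from the nearest of the others took up nearly the whole range. This male has 1 capture area. An SP8 UMI occurred in 28.8% and 21.8% of high spots of building males 1 and 2. In control males 1 and 2 the share was 10.5% and 9.30%. What set building male 1 apart was not tested. Chance flags about 1 in 20 such groups, and 17 lists were looked at.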

How the results depend on the processing

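The counts of 592 higher and 475 lower genes ranged from 258 to 602 and from 174 to 468 with each male left out. They were 321 and 190 with no replicate block (no pairing by male), 83 and 77 in capture area C alone, 154 and 103 with spots thinned to 2000 UMIs, 252 and 193 in subpallial spots and 29 and 57 in subpallial spots without a th or SP8 UMI. Lower genes numbered 290 with DESeq2 and 840 with no filter on low counts. The IEG-like count of 16 ranged from 11 to 17 with each male left out and was 6 in area C, 5 in subpallial spots and 4 in those without a th or SP8 UMI. Its median of 0.69 ranged from 0.62 to 0.82 with each male left out. It was 0.59 in area C and 0.59 thinned, 0.82 against spots with 0 egr1 UMIs, 0.87 in pallial spots, 0.10 in subpallial spots, 0.85 without th or SP8 spots and 0.45 in subpallial spots without them. Ribosomal protein genes called lower numbered 2 to 40 with each male left out, 21 with DESeq2, 26 with the top 20% as high spots, 20 thinned, 6 in pallial spots, 6 without th or SP8 spots, and 0 in area C, with no replicate block and in subpallial spots without th or SP8. List members past the threshold, over all lists, ranged from 62 to 124 with each male left out and were 48 with no replicate block, 26 in area C, 59 thinned, 83 in pallial spots and 20 in subpallial spots without th or SP8. The difference between conditions passed for 56 genes with no filter on low counts and for 2 with the replicate block. For egr1 itself, building against control males gave −0.05 with the replicate block.

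Some genes changed sign, and within regions those of bhlhe22, dlx2, dlx5, sp9 and NEUROD6 are bound up with the assignment of spots, which used them. In subpallial spots gadd45b was −0.12, FOS LOC101487601 −0.53, dusp6 −0.29, nr4a3 −0.20, grin2b 0.071, bhlhe22 −0.59, syn2 −0.037, ucn −0.11 and cnr1 0.13. In pallial spots rrad was 0.92, LOC101477647 −0.98, LOC101483654 −1.31, dlx5 −0.19, sp9 −0.61, MAP2 −0.14, SST LOC101486892 −0.13, tac1 −1.34, meis2 −0.26 and sall3 −0.57. Without th or SP8 spots gad2 was −0.25, dlx2 −1.37, dlx5 −0.69, sp9 −0.80, MAP2 −0.16, SST LOC101486892 −0.30, tac1 −1.67, meis2 −0.74 and sall3 −0.40. In subpallial spots without them FOS LOC101487601 was −0.16, btg1 0.086, grin2b 0.088, NEUROD6 0.020, dlx2 −0.53, dlx5 −0.075, mag 0.060, tac1 −1.48, cnr1 0.56 and PNOC 0.88. In area C MAP2 was −0.0062. The cause was not tested. The settings without th or SP8 spots, the test between regions and the replicate block between conditions were chosen after seeing the data. A planned rate without mitochondrial genes was not run, since 0 features are named as mitochondrial. With 4 males, and control 1 C at a median of 1498 UMIs, small changes of rare genes were not detectable.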

Other observations

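Receptor genes were not described above as a group, and those named here were chosen after their values were seen. Of 108 receptor genes on the study's list, 50 were tested, 6 were higher and 7 lower in high-egr1 spots, beside 5.08% and 4.07% of all genes, and the median log2 fold change was 0.08. Of 5 dopamine receptor genes on that list, 4 were tested and DRD1 and drd2 were higher, while drd3 (0.10 ± 0.27) and DRD4 (LOC101473075, 0.35 ± 0.17) did not pass. DRD1 (LOC101477361) had 54.6, 32.8, 15.5 and 24.2 CPM in high spots of building males 1 and 2 and control males 1 and 2, against 4.56, 11.4, 8.12 and 5.34 CPM in low spots (log2 fold change 1.93 ± 0.30, adjusted p = 0.0011). The DRD1 groups did not overlap. The gene drd2 was higher by 1.17 ± 0.19, also without overlap. DRD1 passed in subpallial spots (1.91) and drd2 in pallial spots (1.63), and the difference between regions did not pass for either (adjusted p = 0.098 and 0.34).

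The adrenergic receptor gene ADRA1B (LOC101485219, 0.79 ± 0.16) and the accessory protein gene RAMP3 (LOC101488002, 0.71 ± 0.12) were higher too. The serotonin receptor gene htr1b was lower, with 17.4, 29.9, 43.3 and 26.4 CPM in high spots of building males 1 and 2 and control males 1 and 2, against 50.7, 63.2, 69.6 and 58.1 CPM in low spots (−1.10 ± 0.15, adjusted p = 0.00052). Its groups did not overlap, and it was lower in 12 of 13 areas. The cannabinoid receptor gene cnr1 had 382, 272, 658 and 398 CPM in high spots, against 783, 879, 941 and 799 CPM in low spots.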
